A study of Homo sapiens with 6 samples.

Results

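The 10 genes described here, TP53I3, CDKN1A, MDM2, BBC3, BAX, GADD45A, SESN1, ZMAT3, FAS and TIGAR, are direct targets of the tumour suppressor p53. They were taken as a named list, 10 of the 19866 protein-coding genes of the RefSeq table of GRCh38 that were used, and every called peak at their ends, in their bodies and within 50 kb was listed. The libraries are CUT&Tag, a method that tethers a transposase to an antibody so that DNA near the bound protein or mark is sequenced, from HepG2, an established human hepatocellular carcinoma line that retains intact p53. They were made with antibodies to ENO1 (enolase 1, a glycolytic enzyme), H4K12la (lactylation of lysine 12 on histone H4) or HDAC1 (a histone deacetylase), with 2 replicates for each of the 3 targets. The labels name no treatment, genotype change or p53-activating agent for any of the 6 libraries, and nothing in them tells whether the replicates were separate cultures, so differences between replicates may be technical.

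p53 is a transcription factor that is kept low by its own target MDM2, a ubiquitin ligase, and that accumulates after DNA damage and other stress. It binds a palindromic element made of a pair of half-sites and switches on genes that halt the cell cycle (CDKN1A, GADD45A), start cell death (BBC3, BAX, FAS, TP53I3) or adjust metabolism and oxidative stress (SESN1, TIGAR). Histone deacetylases remove acyl groups from histones and are subunits of complexes found at both silent and active promoters, while histone lactylation is an acyl mark linked to the cell's lactate.

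Values are those of the authors' peak caller within each library: the fold enrichment of a peak's summit over background, and the -log10 of its q value, which starts at 2 in every list. No scaling joins the libraries, so folds were read within a list and beside that list's other peaks. The lists hold 1189 to 7568 peaks on the 24 chromosomes, and depth is unknown, so a gene without a peak may carry signal under the calling threshold. The median fold of peaks within 1 kb of the ends of protein-coding genes was 3.95 and 4.04 in the H4K12la replicates 1 and 2, and 4.69 and 4.73 in the HDAC1 replicates. As a check on the cell label, HNF4A, a liver transcription factor gene, had an H4K12la gene-end peak in both replicates (3.55-fold and 3.34-fold). ALB, APOA1, APOB, TTR, SERPINA1, AFP and FOXA2 had no gene-end peak in any library, and neither did the 10 marker genes of blood, endothelium and mesenchyme, so these peaks neither bear out nor contradict the cell label.

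Among the 10 p53 targets, HDAC1 was reproduced at the ends of 3 genes (TP53I3, MDM2 and SESN1) and H4K12la at the ends of 1 (TP53I3), while ENO1 had no peak at, in or within 50 kb of any of them. A gene was called for a target where each of its replicates had a peak overlapping the 1 kb on either side of an annotated end. By that rule HDAC1 marked 8.18% of all protein-coding genes, H4K12la 10.5% and ENO1 0.0654%. The 3 of 10 genes for HDAC1 is a larger share than that of all genes, and the 1 of 10 for H4K12la was close to it. The HDAC1 count depends on the threshold: at a -log10 q of at least 5 it was 2 (TP53I3 and MDM2, with 6.31% of all genes), and with each list shortened to its 1189 strongest peaks it was 1 (TP53I3, with 1.47% of all genes). With so few members each gene moves the share by 10 percentage points, and no test was made because the genes were chosen with results of these data known. In either replicate, HDAC1 peaks lay at the ends of 5 members, where 16.8% of all genes had one, and H4K12la peaks at 3, where 22.5% had one. For ENO1, 0.201% of all genes had an end peak in either replicate. In the body or within 50 kb outside the end windows, 4.39% had an ENO1 peak in either replicate.

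**Figure D1:**
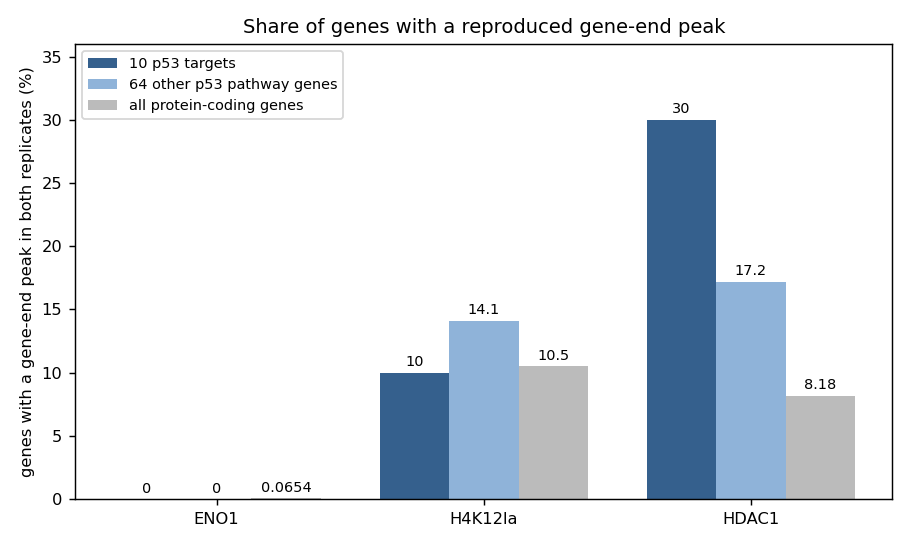
Share of genes, in percent, with a gene-end peak in both replicates of ENO1, H4K12la or HDAC1, for the 10 p53 targets, 64 other p53 pathway genes and all protein-coding genes; bars are single shares without error bars. HDAC1 reaches 30% of the 10 targets and 17.2% of the other pathway genes against 8.18% of all genes, and the H4K12la bars lie between 10% and 14.1%.

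In all, 38 peaks were listed for the 10 genes, 25 of HDAC1 and 13 of H4K12la. At gene ends lay 16 peaks, of which 12 overlapped a peak of the same target's other replicate. Gene bodies outside those windows held 5 peaks, 2 of them so supported, and 17 lay within 50 kb, 8 of them supported. For HDAC1 the 16 supported peaks had a median of 4.41-fold (3.59 to 8.97) and the 9 found in 1 replicate alone a median of 3.19-fold (2.76 to 6.48). For H4K12la the 6 supported peaks had a median of 4.25-fold (3.22 to 5.24) and the 7 others 3.91-fold (3.15 to 5.20), so the ranges overlapped for both targets. TP53I3 alone accounted for 8 of the 12 supported gene-end peaks.

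**Figure D2:**
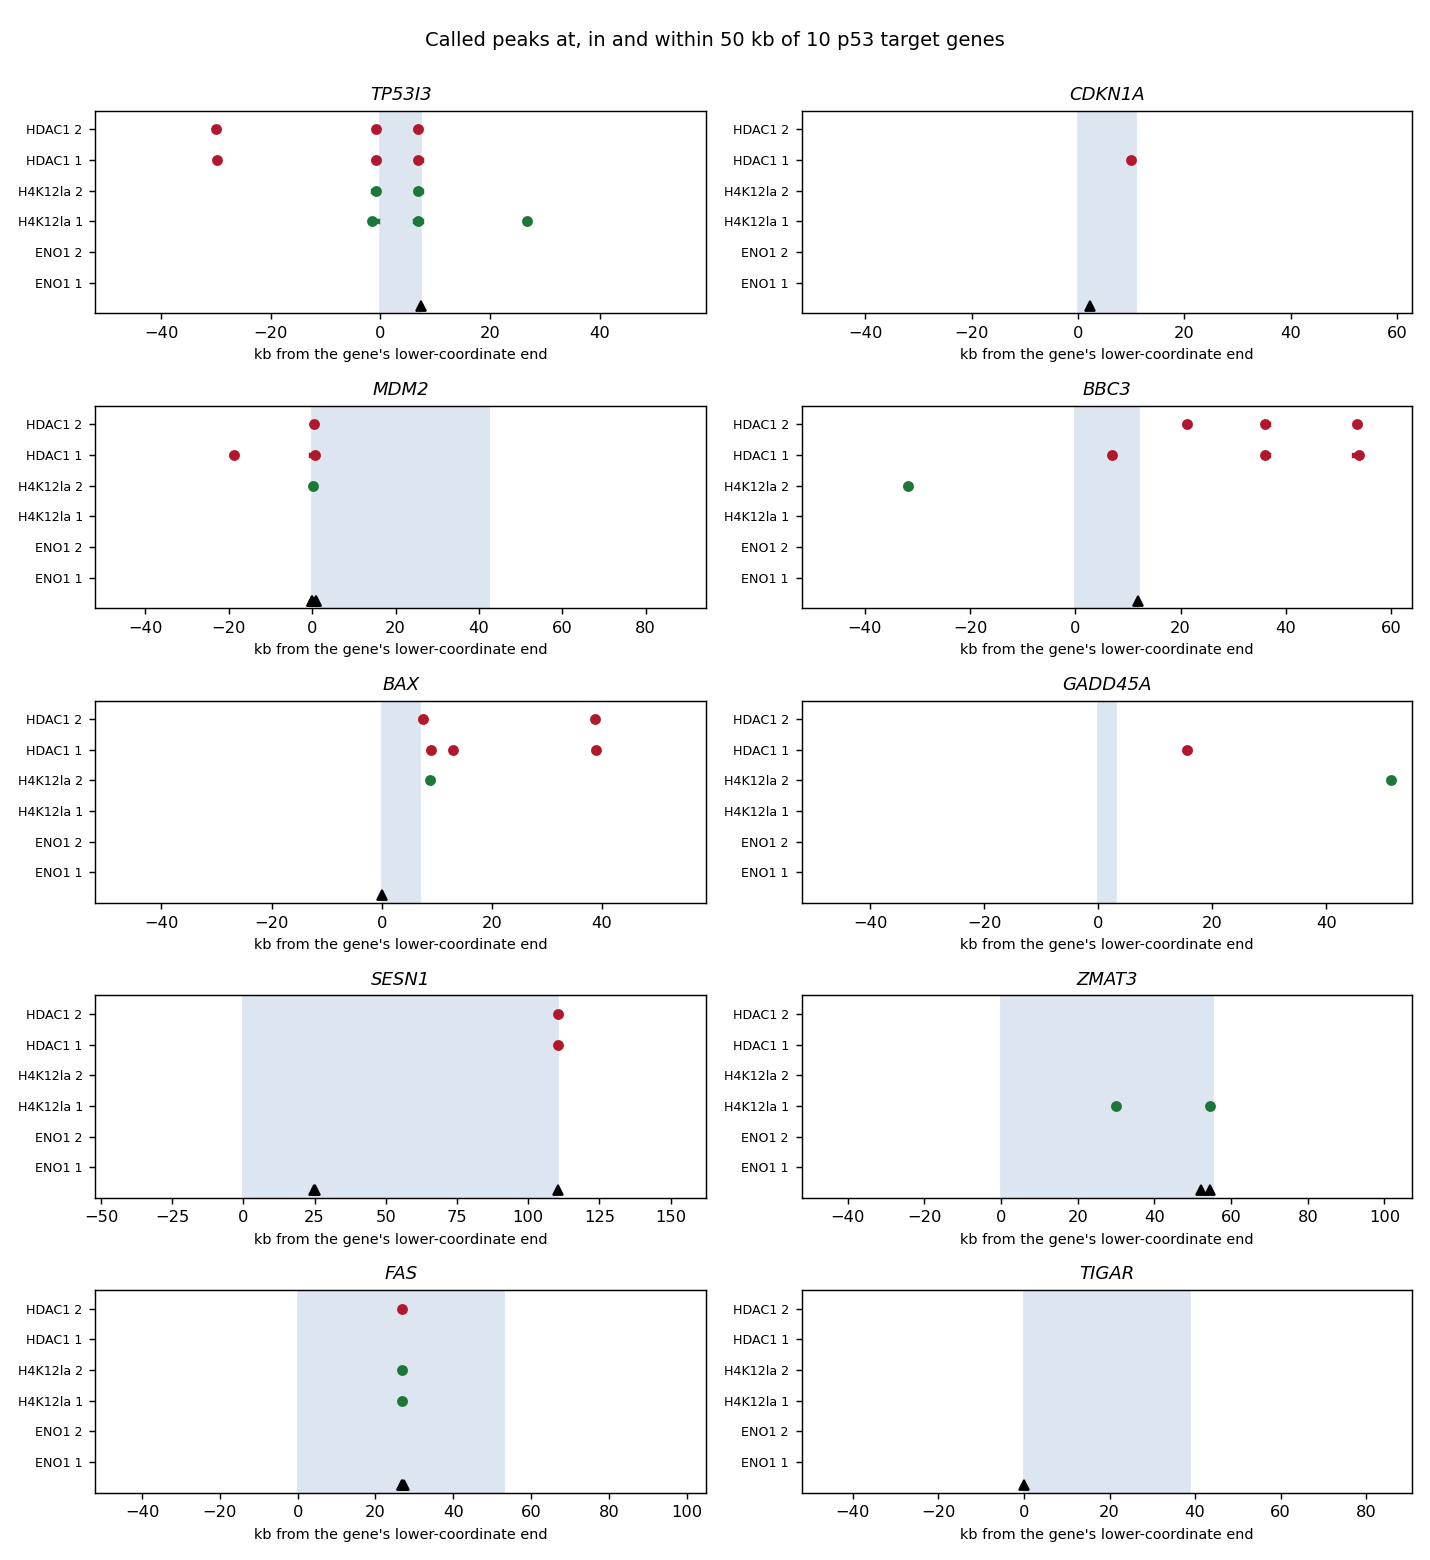
Called peaks around the 10 genes, 1 panel per gene, with distance in kb from the gene's lower-coordinate end on the x axis and the 6 libraries as rows; circles are summits, bars the peaks, the shaded band the gene and triangles the starts of the RefSeq promoter table. The ENO1 rows are empty in every panel, TIGAR has no peak at all, and TP53I3 has 11.

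TP53I3, which encodes a quinone oxidoreductase known for a role in oxidative stress during p53-driven death, carried the strongest and best reproduced signal of the list. The gene (chromosome 2, 24077433 to 24084834, minus strand, 7.40 kb) had peaks of both H4K12la and HDAC1 at both of its ends, in both replicates of each target. At the 5′ end HDAC1 reached 8.40-fold in replicate 1 (-log10 q of 50.1) and 8.97-fold in replicate 2 (-log10 q of 42.0). These values were at or above 98.8% and 99.2% of the gene-end peaks in their own lists. H4K12la reached 5.21-fold and 5.24-fold there (-log10 q of 21.8 and 22.3), at or above 92.4% and 89.9% of the gene-end peaks. So both targets were high at this end in all 4 libraries, with HDAC1 nearer the top of its lists than H4K12la of its own.

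The summits at this end lay inside the gene and not on its start. Both HDAC1 summits fell on the same base, 485 bp downstream of the RefSeq start, the H4K12la summit of replicate 1 lay at 484 bp and that of replicate 2 at 624 bp. None of the 4 peaks overlapped the promoter window of the RefSeq table, which runs from 250 bases before to 50 bases after the start. The 250 bases upstream of that start are shown because they are the bases these peaks leave out (chr2:24084835-24085084, minus strand, GRCh38.p14, RefSeq; no capitals, since no peak covers them).
TP53I3: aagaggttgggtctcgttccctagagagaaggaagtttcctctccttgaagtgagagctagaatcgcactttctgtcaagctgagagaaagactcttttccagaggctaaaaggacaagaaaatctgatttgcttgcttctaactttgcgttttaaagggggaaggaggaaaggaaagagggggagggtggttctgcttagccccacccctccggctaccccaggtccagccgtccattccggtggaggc
This window has a GC content of 54.3% with 9 CpG dinucleotides over its 300 bases, where the median of all 22199 protein-coding promoter windows is 62.3% and 21.

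At the 3′ end of TP53I3 the peaks lay outside the gene, over the neighbouring starts of SF3B6, a splicing factor gene, and FAM228B. HDAC1 had 7.46-fold and 8.13-fold there (-log10 q of 37.7 and 38.9) and H4K12la 3.22-fold and 3.59-fold (-log10 q of 4.61 and 7.02). The H4K12la values were at or above 12% and 27.7% of the gene-end peaks in their lists, so H4K12la was low where HDAC1 was high (at or above 95.8% and 98.1%). These peaks are counted for TP53I3 by distance, and whether they belong to it was not tested. The H4K12la summit of replicate 1 lay 1471 bp from the gene end, so only the edge of that peak entered the 1 kb window. That of replicate 2 lay 885 bp from it. Among the 18646 protein-coding genes over 2 kb long, 18 (0.0965%) had H4K12la and 12 (0.0644%) had HDAC1 reproduced at both ends. Another HDAC1 peak, 29.6 kb from the gene at the start of WDCP, had 3.84-fold and 4.13-fold. H4K12la replicate 1 alone had a peak 19.1 kb from the gene (4.65-fold), at or above 73.1% of its whole list.

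**Figure D3:**
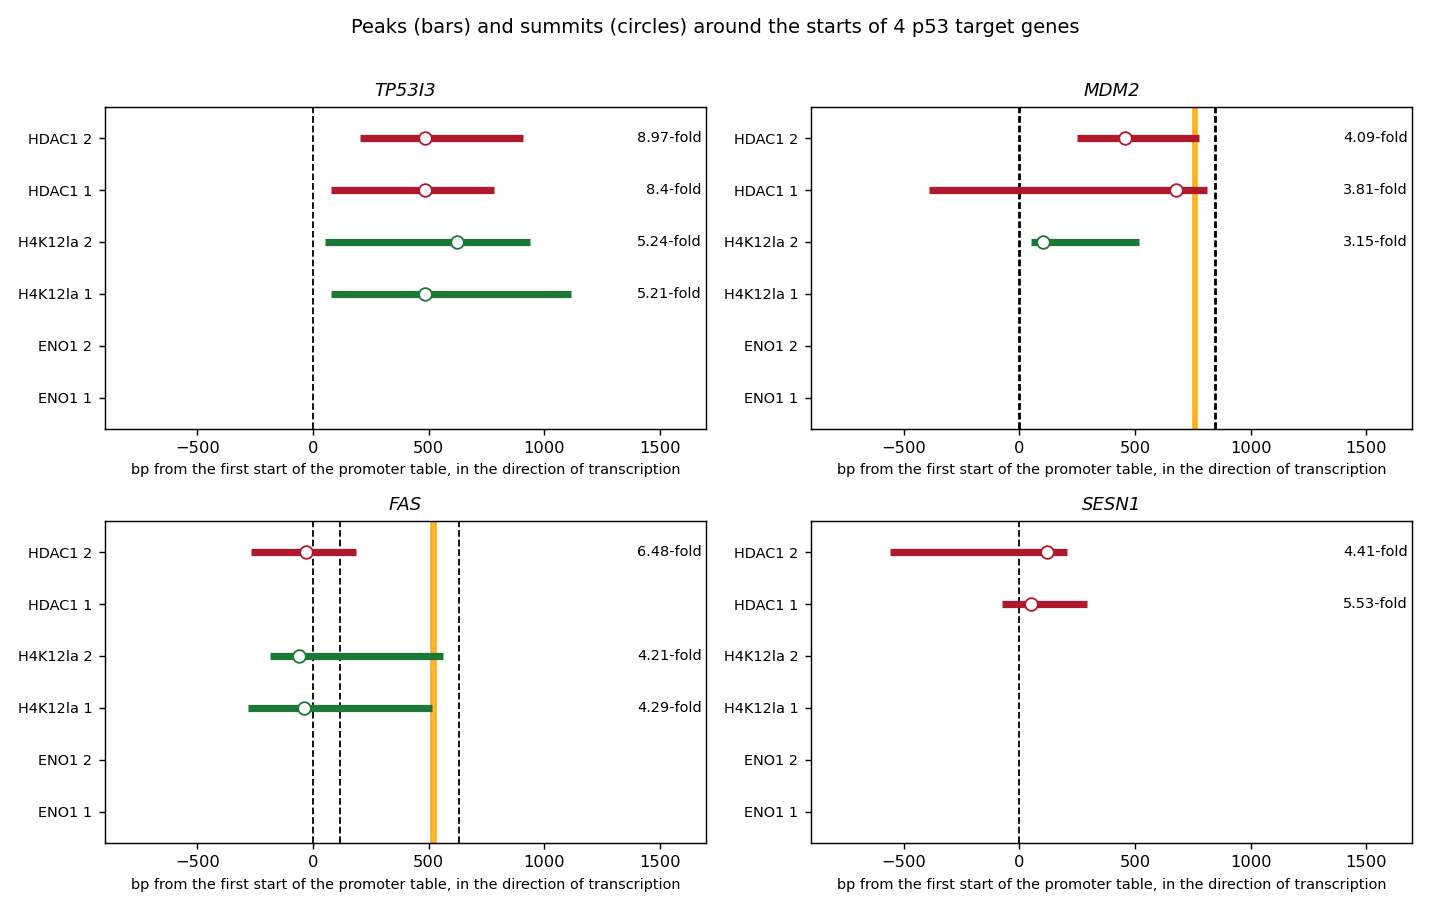
Peaks (bars) with their summits (circles) and fold enrichments at the starts of TP53I3, MDM2, FAS and SESN1, with bp from the first start of the promoter table in the direction of transcription on the x axis and the 6 libraries as rows; dashed lines are RefSeq starts and orange bands the p53 site matches. The TP53I3 summits lie 484 to 624 bp inside the gene. Both HDAC1 peaks of MDM2 cover the orange band near their downstream edges, past their summits. At FAS the H4K12la peaks reach the band while the HDAC1 peak does not.

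MDM2, the ubiquitin ligase that marks p53 for degradation, carried HDAC1 at its 5′ end in both replicates and H4K12la in replicate 2 alone. The gene (chromosome 12, 68808172 to 68850686, plus strand) has an outer start and an inner start downstream of it, the latter known as the p53-responsive promoter. HDAC1 had 3.81-fold (-log10 q of 7.43) in replicate 1 and 4.09-fold (-log10 q of 8.74) in replicate 2, at or above 19.1% and 27.0% of the gene-end peaks in those lists. The H4K12la peak had 3.15-fold (-log10 q of 3.48), at or above 9.08% of the gene-end peaks of its list. H4K12la replicate 1 had its nearest peak 61.3 kb away. The calls were thus low for both targets; the HDAC1 call was repeated, but it was lost when each list was shortened to its 1189 strongest peaks. HDAC1 replicate 1 alone had a further peak 18.7 kb from the gene (3.48-fold).

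The HDAC1 summits lay between the outer and inner starts, and both peaks reached the window of the inner one. The summit of replicate 1 was 169 bp upstream of the inner start and 671 to 676 bp downstream of the outer starts, but this peak, 1202 bp long, also covered all 300 bases of both outer windows. The summit of replicate 2 was almost midway, 388 bp upstream of the inner start and 452 to 457 bp downstream of the outer ones, and its peak of 526 bp reached no outer window. The H4K12la summit lay 97 bp downstream of an outer start, and its peak did not reach the window of the inner start. A match to the p53 consensus site lies in that window, and both HDAC1 peaks cover all 20 of its bases. Both peaks hold it near their downstream edge, past their summits. They end at 68808984 in replicate 1 and at 68808947 in replicate 2. The search used the p53 consensus element, 20 bases with no spacer, keeping the core letters NNNCNNGNNNNNNCNNGNNN and allowing 2 mismatches elsewhere. The element is palindromic, so 1 pass covers both strands. By that search 55 of 22199 windows (0.248%) hold a match, and a match is a description of letters and not evidence of binding. The rule was set with the known p53 elements of MDM2 and FAS in mind, so the matches at these genes were fixed by that choice and nothing is read from them beside the share of all windows. The 250 bases before the inner start are shown because they hold this site, in capitals (chr12:68808767-68809016, plus strand, GRCh38.p14, RefSeq).
MDM2 inner start: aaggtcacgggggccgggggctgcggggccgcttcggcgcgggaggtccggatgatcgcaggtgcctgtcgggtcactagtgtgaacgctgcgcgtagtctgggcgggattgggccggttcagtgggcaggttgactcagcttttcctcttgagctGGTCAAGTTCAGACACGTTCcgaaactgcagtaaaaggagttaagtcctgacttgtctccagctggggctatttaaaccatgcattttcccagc
The site (chromosome 12, 68808923 to 68808942) starts 94 bases before the inner start, and no H4K12la or ENO1 peak touches it.

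FAS, the death receptor of the TNF receptor family, had H4K12la over its starts in both replicates, although the gene-end rule missed it. The annotated gene (chromosome 10, 88964050 to 89017059, plus strand) begins far upstream of the 3 starts in the promoter table, so these peaks counted as gene body. H4K12la had 4.29-fold (-log10 q of 7.72) and 4.21-fold (-log10 q of 6.56), with summits 41 and 59 bp upstream of the first of these starts. HDAC1 had 6.48-fold (-log10 q of 9.13) in replicate 2, with its summit 29 bp upstream, at or above 79.5% of that whole list. HDAC1 replicate 1 had no peak nearer than 627 kb, so HDAC1 at FAS rested on a single library. The same peaks lie within 1 kb of a start of ACTA2, a smooth muscle actin gene on the other strand, and the files cannot assign them to one gene. Counted within 1 kb of any start in the promoter table, H4K12la was reproduced at 2 of 9 members, TP53I3 and FAS, where 11.8% of 15843 genes had it. HDAC1 was reproduced at 3 of 9, where 8.90% had it. GADD45A was not part of that count.

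The bases upstream of the first FAS start are shown because all 3 summits fall in them; capitals run from the lowest to the highest summit, 31 bases (chr10:88990548-88990797, plus strand, GRCh38.p14, RefSeq). The other line holds the p53 site match of FAS in capitals with 5 bases on each side (chr10:88991304-88991333, plus strand).
FAS first start: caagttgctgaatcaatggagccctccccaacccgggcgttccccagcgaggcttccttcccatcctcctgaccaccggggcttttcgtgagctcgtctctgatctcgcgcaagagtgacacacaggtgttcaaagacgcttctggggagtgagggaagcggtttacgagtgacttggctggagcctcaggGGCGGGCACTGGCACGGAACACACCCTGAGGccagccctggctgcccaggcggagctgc
FAS p53 site: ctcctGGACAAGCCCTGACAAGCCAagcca
The H4K12la peak of replicate 2 covered all 20 bases of this site and that of replicate 1 ended 4 bases into it, while the HDAC1 peak ended before it. The motif search covered only the 300-base promoter windows of the RefSeq table, and GADD45A has none there. Elements outside these windows, with a spacer or with other core letters could not be found. Members without a match may therefore still have a p53 element. MDM2 and FAS, whose elements the rule was set to find, were the searched members with a match at 2 mismatches. With 3 allowed, which 1.14% of windows meet, SESN1 also had one (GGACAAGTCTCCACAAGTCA, chromosome 6, 109009018 to 109009037, minus strand), at an inner start where no library had a peak.

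SESN1, which encodes sestrin 1, a stress protein that restrains mTORC1 signalling, carried HDAC1 at its 5′ end in both replicates and no other peak within 50 kb. The gene (chromosome 6, 108984309 to 109094846, minus strand, 111 kb) had 5.53-fold (-log10 q of 7.91) in replicate 1 and 4.41-fold (-log10 q of 4.85) in replicate 2. These were at or above 73.4% and 37.9% of the gene-end peaks in their lists, so replicate 2 lay below the middle of its list. At a -log10 q of at least 5 the replicate 2 peak is lost and with it the call, and the call is also lost with lists of 1189 peaks. The summits lay 50 and 120 bp downstream of the outermost start. The peak of replicate 2 also reached the start of CEP57L1, a gene read from the other strand, and that of replicate 1 ended 244 bp from it. The nearest H4K12la peaks were 136 kb away in both replicates. The 250 bases upstream of the start are shown because both HDAC1 peaks run into them; capitals mark the 73 bases under both (chr6:109094847-109095096, minus strand, GRCh38.p14, RefSeq).
SESN1: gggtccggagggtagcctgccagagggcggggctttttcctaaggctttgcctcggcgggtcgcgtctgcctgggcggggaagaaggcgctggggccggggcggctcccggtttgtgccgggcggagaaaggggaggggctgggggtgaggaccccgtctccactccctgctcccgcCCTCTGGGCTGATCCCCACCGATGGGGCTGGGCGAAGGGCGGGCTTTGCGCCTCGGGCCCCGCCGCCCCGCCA
The window at this start has a GC content of 75% with 28 CpG dinucleotides, richer than TP53I3.

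SESN1 and MDM2 carried reproduced HDAC1 but no reproduced H4K12la, a state shared by 995 protein-coding genes (5.01%). Within it they differed, since MDM2 had an H4K12la gene-end peak in replicate 2 and SESN1 had none in either replicate. TP53I3, with both reproduced, shared that with 631 genes (3.18%). Over the 6 libraries one by one, the gene-end pattern of TP53I3 was met by 618 genes, among them ATM, GPX1, PANK1 and RRM2B of the p53 pathway. That of SESN1 was met by 566, among them BCL2L1, PLK3 and REV3L, and that of MDM2 by 347, among them PCNA and PPM1D.

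**Figure D4:**
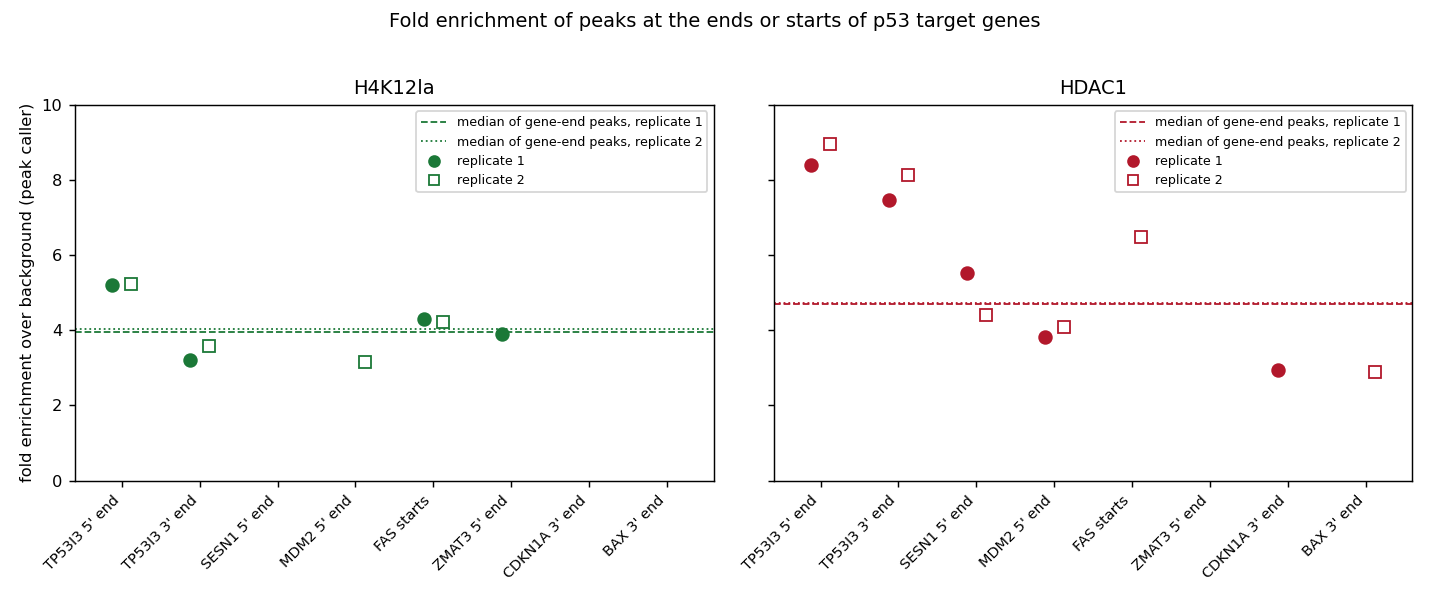
Fold enrichment over background of the peaks at the ends of TP53I3, SESN1, MDM2, ZMAT3, CDKN1A and BAX and at the starts of FAS, for H4K12la (left) and HDAC1 (right); filled circles are replicate 1, open squares replicate 2, and the dashed and dotted lines are each replicate's median over gene-end peaks. Both ends of TP53I3 stand above the HDAC1 medians (4.69 and 4.73) in both replicates, while MDM2, CDKN1A and BAX lie below them. SESN1 lies above the median in replicate 1 and below it in replicate 2 (4.41-fold).

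CDKN1A and GADD45A had no reproduced peak, which for gene ends is the state of most protein-coding genes. CDKN1A, whose product p21 inhibits cyclin-dependent kinases (chromosome 6, 36676463 to 36687332, plus strand), had 1 peak, of HDAC1 in replicate 1, with 2.94-fold (-log10 q of 2.97) at its 3′ end. That value was at or above 1.62% of the gene-end peaks in its list, close to the lowest. The other HDAC1 replicate had its nearest peak 82.3 kb away and H4K12la 129 and 128 kb away, so the start of CDKN1A was without a called peak in all 6 libraries. GADD45A, a growth arrest gene that answers DNA damage (chromosome 1, 67685201 to 67688334), had no peak in the gene or at its ends. Within 50 kb it had 1 HDAC1 peak of replicate 1 (3.47-fold), 12.2 kb away and 308 bp from an end of GNG12, and 1 H4K12la peak of replicate 2 (5.20-fold), 47.9 kb away.

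BAX and BBC3 likewise had no reproduced peak at their ends or in their bodies. BAX, which encodes a pore-forming protein of the outer mitochondrial membrane (chromosome 19, 48954875 to 48961798, plus strand), had 1 gene-end peak, HDAC1 replicate 2 at its 3′ end, with 2.90-fold (-log10 q of 4.70). HDAC1 replicate 1 had a peak 1.73 kb from the gene (3.07-fold), which did not overlap it, and H4K12la replicate 2 had one at the same distance (3.21-fold). Both of those lay between BAX and FTL, the ferritin light chain gene. HDAC1 replicate 1 alone had a further peak 5.96 kb away (2.76-fold), 55 bp from an end of GYS1. BBC3, which encodes the death protein PUMA (chromosome 19, 47220824 to 47232860, minus strand), had no gene-end peak. In its body it had 1 HDAC1 peak of replicate 1 (3.19-fold, -log10 q of 7.38), 4941 bp downstream of its RefSeq start. HDAC1 replicate 2 alone had a peak 8.70 kb from the gene (3.32-fold), and H4K12la replicate 2 alone had one 31.7 kb away (3.45-fold).

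Around BAX and BBC3 the reproduced HDAC1 peaks sat at the starts of other genes. At 31.7 and 31.6 kb from BAX, beside the starts of RUVBL2 and GYS1, HDAC1 had 4.74-fold and 5.43-fold in replicates 1 and 2. At 23.8 kb from BBC3, near the start of CCDC9, it had 4.42-fold and 3.59-fold. At 40.9 and 41.0 kb, at INAFM1, it had 3.61-fold and 3.70-fold. Together with the WDCP peak beside TP53I3, all 8 reproduced peaks within 50 kb, in 4 places, lay at the ends of other protein-coding genes, and all 8 were HDAC1. Over the whole HDAC1 lists, 2349 of 5727 peaks in replicate 1 and 1584 of 4567 in replicate 2 lay at protein-coding gene ends. Those counts take in peaks without support in the other replicate and peaks far from any gene. They are therefore not a matching share for the 8, and a share for reproduced peaks near genes was not computed. Outside the gene-end windows HDAC1 was reproduced in the body or within 50 kb of 3 members (TP53I3, BBC3 and BAX), where 20% of all protein-coding genes had such a peak. H4K12la was reproduced there for 1 (FAS), where 22.6% had one, and ENO1 for 0, where 1.53% had one. The stretch searched is longer for longer genes, but the shares were not computed by gene length. Length ran from 3.13 to 111 kb here, with a median of 24.5 kb over all protein-coding genes.

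ZMAT3, which encodes an RNA-binding zinc finger protein (chromosome 3, 179017223 to 179072513, minus strand), had H4K12la in replicate 1 alone. Its 5′ peak had 3.91-fold (-log10 q of 4.80), with the summit 133 bp downstream of a RefSeq start, and covered the whole 300-base promoter window. A body peak had 4.0-fold (-log10 q of 4.06). H4K12la replicate 2 had its nearest peak 75.1 kb away. TIGAR, which encodes a fructose bisphosphatase that lowers glycolytic flux (chromosome 12, 4321213 to 4360028, plus strand), had no peak of any library within 50 kb, and its nearest, of H4K12la replicate 2 and HDAC1 replicate 1, lay 178 kb away. The same emptiness was found at 34.9% of protein-coding genes.

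ENO1 peaks were distant from all 10 genes. The nearest lay 1.26 to 12.8 Mb away in replicate 1 (median 5.36) and 1.78 to 41.1 Mb away in replicate 2 (median 6.98), with the shortest distances at TIGAR. Over all protein-coding genes the medians were 1.93 and 3.45 Mb. The short ENO1 lists (1592 and 1189 peaks) limit what can be seen near any single gene.

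The wider p53 pathway was described by 64 other genes. HDAC1 was reproduced at the ends of 11 (17.2%), H4K12la at 9 (14.1%) and ENO1 at 0, beside 8.18%, 10.5% and 0.0654% of all protein-coding genes. Of 18 regulators of p53, HDAC1 was reproduced at 3: the damage kinase gene ATM (5.70-fold and 5.37-fold), the phosphatase gene PPM1D (4.11-fold and 4.78-fold) and the histone chaperone gene DAXX (4.31-fold and 3.89-fold). H4K12la was reproduced at 3 as well: ATM (3.84-fold and 5.27-fold), MDM4, which encodes a p53 inhibitor related to MDM2 (3.84-fold and 3.74-fold), and the acetyltransferase gene EP300 (3.68-fold and 4.34-fold). Of 14 further cell cycle and repair targets, HDAC1 was reproduced at 4, the highest being RRM2B, a ribonucleotide reductase subunit gene (7.24-fold and 7.15-fold), and H4K12la at 1, RRM2B (3.02-fold and 4.93-fold). Among 16 death and survival targets, H4K12la was reproduced at 2, APAF1 of the apoptosome (3.59-fold and 4.86-fold) and RPS27L (3.57-fold and 4.27-fold), and HDAC1 at 1, BCL2L1 (3.08-fold and 2.61-fold). Of 16 metabolism and stress targets, each of the pair was reproduced at 3, both of them at PANK1, a pantothenate kinase gene (HDAC1 4.64-fold and 5.03-fold), and GPX1, a glutathione peroxidase gene (HDAC1 4.45-fold and 4.39-fold).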

How the data were processed

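Peak lists of 6 CUT&Tag libraries from HepG2 cells were used, 2 for each of ENO1, H4K12la and HDAC1, grouped by their titles. FastQC, Bowtie2, MACS2 and deepTools are named, with the build hg38, per the submitters' processing notes. Settings and any control library in peak calling are not given in sources used here. In the deposited lists, 1 per library, the authors give each peak a fold enrichment (a ratio within that library), the -log10 of p and q, and a score tied to the -log10 q. The lists end at a -log10 q of about 2, which is a q value of 0.01. Read depth is unknown, so no interval is given.

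Peaks on the 24 chromosomes and 19866 protein-coding genes of RefSeq GRCh38.p14 were used, leaving out 718 gene entries that belong to other sequences. Overlap meant at least 1 bp. A peak belonged to a gene end within 1 kb of either annotated end, otherwise to the body, otherwise to the 50 kb around it. Strand, starts and sequences came from the RefSeq promoter table, which matched 9 of the 10 genes. The annotation used gives no exons, so exon, intron and UTR are not stated. The calling of peaks by place was tested on simulated data. Python 3.11.15, numpy 2.4.6 and pandas 2.3.3 were used.

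The members and lists were chosen with earlier results of these data known, so no test was made: counts stand beside the share of all protein-coding genes. Named were all 10 members, up to 6 reproduced pathway genes per target by the lower fold (the rest unnamed, except BCL2L1, chosen after its values were seen), neighbours of reproduced peaks and pathway genes sharing a member's pattern. One pathway gene is not reported here by name. The motif search was chosen after the peaks were seen, and its rule with the known elements of MDM2 and FAS in mind. Alternatives were other windows, reaches, thresholds, list sizes and single replicates.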

Additional observations from a re-analysis of the deposited data

How the results depend on the processing

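ENO1 gave 0 members under every setting run. H4K12la at gene ends stayed at 1 member, except 2 with RefSeq starts only (TP53I3 and FAS) and 2 in either replicate alone (2 to 2). HDAC1 at gene ends gave 2 to 4 members, except 1 (TP53I3) when each list was shortened to its 1189 strongest peaks, which removes MDM2 and SESN1; single replicates gave 4 to 4. With windows of 2 kb BAX joined, by peaks of the replicates that do not overlap. In the body or within 50 kb, H4K12la moved from 1 to 4 with a reach of 100 kb and to 0 with equal lists, and single replicates gave 3 to 4. HDAC1 there moved from 3 to 1 with a reach of 20 kb and to 0 with equal lists, and single replicates gave 4 to 5. Of the 4 called pairs of a gene and a target, under 8 alternatives each, 3 of 32 calls were lost: SESN1 at a -log10 q of at least 5, and MDM2 and SESN1 with equal lists. The 26 pairs not called gained a call in 6 of 208 cases. No paired analysis was possible because these counts come from no test; whether equal replicate numbers mark shared cultures is unknown. With unknown depth, a missing peak is not missing signal.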

Other observations

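Noncoding RNA genes beside the members gave a few more values. FAS-AS1, on the other strand from FAS, met the FAS peaks within 1 kb. PANDAR and DINOL, p53-linked noncoding RNA genes beside CDKN1A, had no gene-end peak in any of the 6 libraries. The microRNA genes MIR3190 and MIR3191 in BBC3 lay within 1 kb of its HDAC1 peak of replicate 1 (3.19-fold). PIK3CA-DT, a long noncoding RNA gene beside ZMAT3, had HDAC1 gene-end peaks in both replicates (4.62-fold and 4.45-fold). H4K12la had a peak there in replicate 2 alone (3.55-fold). These peaks lay 75.1 to 75.3 kb from ZMAT3.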
